A study of Homo sapiens with 9 samples.

Results

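The comparison described here sets CCM3-knockout endothelial cells grown on fibronectin against wild-type endothelial cells. The cells were CI-huVEC, a commercial immortalized line made from endothelial cells of human umbilical veins, and all were at passage 31. The first group held 3 libraries, from CCM3 -/- clones 21, 22 and 23 after 48 h on a fibronectin coating of 5 µg per square centimetre. The group it was set against held 3 libraries of wild-type lines 1, 2 and 3 without the coating. A further 3 libraries came from the same clones without fibronectin, and they enter where treated and untreated clones are set side by side. The members are all genes in the count table that passed a filter on low counts, which were 13802 of 28514 gene symbols. The knockout was made by CRISPR/Cas9 editing of CCM3 (gene symbol PDCD10) in exon 3, and each knockout line grew from 1 cell clone. Genotype, clonal origin and coating all differ between the groups and cannot be told apart in this comparison. Wild-type cells on fibronectin were not analysed here. The labels do not say whether the wild-type lines came from separate cultures, so p-values measure only the spread between these samples.

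CCM3 is one of the genes whose loss causes cerebral cavernous malformations, clusters of thin-walled, leaky blood vessels in the brain. Its product is found in a complex with CCM2 and KRIT1, the other CCM proteins. It also holds kinases of the GCKIII family in the STRIPAK complex. In endothelial cells the CCM proteins restrain the kinase MEKK3, which drives ERK5, MEF2 transcription factors and in turn the flow-responsive factors KLF2 and KLF4. Fibronectin is an extracellular matrix protein that endothelial cells secrete and bind through integrins such as alpha 5 beta 1 and alpha V beta 3, and the study asked how far a fibronectin coating restores knockout cells.

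Libraries held between 24406001 and 33971610 counts in total, and 16703 to 17228 genes had at least 1 count in a library. In a principal component analysis of the 6 libraries, the first component held 88.7% of the variance and separated the treated clones from the wild-type lines. The second held 4.48%, and along it clone 21 stood at -25.1 and clone 22 at 20.4, with clone 23 and the wild-type lines between -2.76 and 5.75. Of 44 markers of smooth muscle, fibroblasts, epithelium and leukocytes, 22 passed the filter on low counts, and their levels are given at the end. Among those that did not, PTPRC, DCN and CNN1 had 0 to 1 counts in each treated and wild-type library and LUM 0. CDH1 had 0 to 3 counts in treated clones and 0 in wild-type, and MYH11 had 3 to 7 and 0. Others ran the other way, with THY1 at 0 to 1 counts in treated clones and 7 to 9 in wild-type. KRT19 had 0 counts in treated clones and 3 to 4 in wild-type, and PDGFRB 0 to 1 and 1 to 4.

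Most genes tested differed between the treated clones and wild-type. At an adjusted p under 0.05 in edgeR's quasi-likelihood test, with Benjamini-Hochberg adjustment over all genes tested, 8099 of 13802 genes changed, which is 58.7%. Of these, 4009 rose in the treated clones, a share of 29%, and 4090 fell, a share of 29.6%. Counts of list members below are to be read beside these shares. A change of at least 2-fold was reached by 913 genes that rose and 1097 that fell, and a change of at least 8-fold by 176 and 278 genes. The 3 treated and the 3 wild-type values did not overlap for 8868 genes, 64.3% of those tested. The median log2 fold change of all genes was 0.01. In bulk libraries, fewer cells expressing a gene and less RNA per cell cannot be told apart.

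The genes that rose furthest were close to silent in wild-type. CMKLR1, the receptor for chemerin, stood at 21.1, 26.7 and 23.4 CPM (counts scaled by effective library size) in treated clones 21, 22 and 23, against 0, 0.0336 and 0.0328 CPM in the wild-type lines. With 2022 counts in the treated clones and 2 in wild-type, the ratio was 1028, with a 95% counting interval of 284.3 to 8498. FAM65B had 1550 counts in the treated clones and 0 in wild-type, so it was at least 525.6-fold higher, taking 3 counts over the group as the floor. A2M, a broad protease inhibitor of plasma, averaged 15.5 ± 2.14 CPM in treated clones and 0.0804 ± 0.0512 CPM in wild-type (SD, n = 3 each, as in all such values here). The genes named here were taken from those whose groups did not overlap. That all 3 treated clones lay above wild-type follows from this choice.

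At the other end, several genes of wild-type cells were absent or nearly so in the treated clones. HEY2, a transcription factor of the Notch pathway, had 0 counts in the 3 treated libraries and 1181 in wild-type, and was at least 387-fold lower. The receptor tyrosine kinase KIT had 0 counts in treated clones and 585 in wild-type, at least 191.7-fold lower, and the growth factor FGF5 had 0 and 466, at least 152.7-fold lower. AMTN, a secreted protein known from tooth enamel, had 0 counts in treated clones and 1430 in wild-type and was at least 468.6-fold lower. POSTN, the matrix protein periostin, had 1 count in the treated clones and 3719 in wild-type, a ratio of wild-type over treated of 3656 with an interval of 655.8 to 144400. In each of these genes all 3 clones were low, which the choice of genes whose groups did not overlap required.

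The smallest p-values belonged to genes whose groups lay far apart. FBLN5, an elastic fibre protein, averaged 0.0476 ± 0.0218 CPM in treated clones and 43.7 ± 1.83 CPM in wild-type (log2 fold change -9.74, SE 0.17, edgeR adjusted p = 6.25e-13). TGFBI, a matrix protein induced by TGF-beta, averaged 42.3 ± 2.54 CPM against 476 ± 10.6 CPM in wild-type (log2 fold change -3.49, SE 0.07). F2RL1, the protease-activated receptor PAR2, was 8.08-fold lower, at 17.4 ± 0.977 CPM in treated clones and 141 ± 5.96 CPM in wild-type. The genes that rose in this set included SULF2, which trims heparan sulfate chains and was 11.6-fold higher, and HSPA12B, an endothelial heat shock family member that was 19.6-fold higher.

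**Figure D1:**
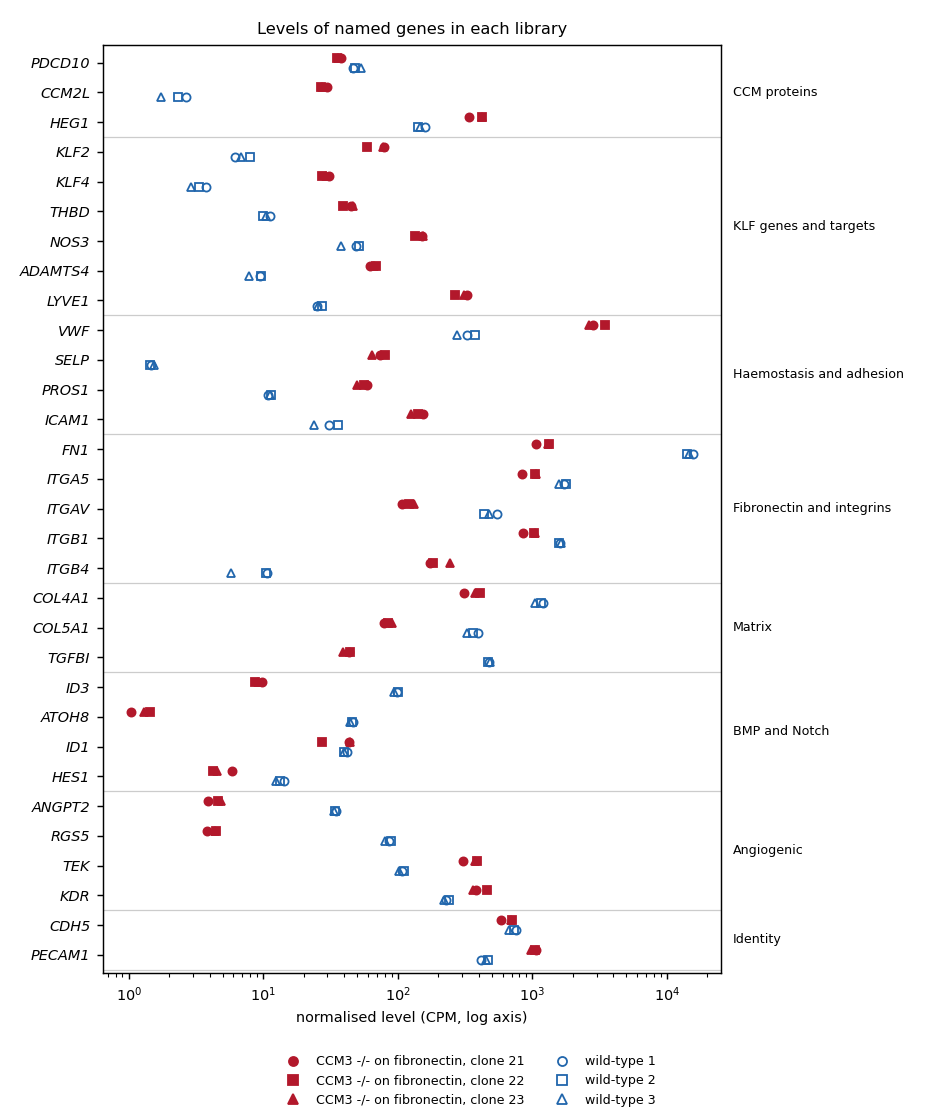
Normalised level in CPM (log axis) of 31 named genes, filled symbols for the CCM3 -/- clones on fibronectin and open symbols for the wild-type lines, with 1 symbol per library. KLF2, KLF4, VWF and SELP lie right of the wild-type symbols in all 3 clones, FN1, ID3 and ATOH8 lie left of them, and ID1 and CDH5 overlap.

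Among the CCM proteins themselves the edited gene was still transcribed. PDCD10 stood at 37.8, 35.3 and 36.1 CPM in the treated clones and at 46.3, 48.4 and 53.1 CPM in wild-type, 1.35-fold lower (log2 fold change -0.44, SE 0.08, edgeR adjusted p = 0.000326). All 3 clones were below all 3 wild-type lines. A count over the whole gene does not show the edit in exon 3 itself. KRIT1 averaged 41.2 ± 2.10 CPM in treated clones and 41.2 ± 0.991 CPM in wild-type and did not pass the test (edgeR adjusted p = 0.992), whereas CCM2 rose 1.42-fold. With a correction for transcript GC content and length, chosen after the data were seen, KRIT1 rose by 0.22 on the log2 scale (edgeR adjusted p = 0.00231).

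Members of the wider CCM and GCKIII list included large changes and none. CCM2L, a CCM2 paralogue of endothelial cells, rose 12.5-fold to 29.5, 27.1 and 27.4 CPM in the treated clones, against 2.66, 2.32 and 1.74 CPM in wild-type. HEG1, the transmembrane receptor that anchors KRIT1 at the membrane, rose 2.65-fold to 394 ± 49.0 CPM, against 149 ± 8.87 CPM in wild-type. MST4, one of the GCKIII kinases that bind CCM3, had 3 counts in the treated clones and 1411 in wild-type, a ratio of wild-type over treated of 462.4 with an interval of 157.9 to 2245. Of the 26 members of the list of CCM and GCKIII genes, 12 rose, 5 fell and 9 did not pass, so the share called was 65.4% against 58.7% of all genes, and the median log2 fold change was 0.03. With the GC and length correction 18 members rose and 4 fell, and the median was 0.26. Over all genes the corrected fit called 7462 of 12157, with 3670 higher and 3792 lower.

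KLF2 and KLF4 both rose in the treated clones. KLF2 stood at 78.5, 59.3 and 78.3 CPM in treated clones 21, 22 and 23, against 6.13, 7.97 and 6.89 CPM in wild-type lines 1, 2 and 3. The groups lay far apart, with a log2 fold change of 3.36 (SE 0.13, edgeR adjusted p = 6e-10). KLF4 stood at 30.7, 27.5 and 29.3 CPM in the treated clones and at 3.73, 3.33 and 2.92 CPM in wild-type, a log2 fold change of 3.13 (SE 0.10). On the deposited FPKM scale, which is per length, KLF2 averaged 36.3 ± 5.35 FPKM and KLF4 7.97 ± 0.356 FPKM in the treated clones. Without fibronectin the same clones had log2 fold changes against the same wild-type libraries of 3.24 for KLF2 and 3.05 for KLF4. The 14 members of the KLF family did not move together. Among them 5 rose, 4 fell and 5 did not pass (64.3% called, all genes 58.7%).

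Genes of the cascade upstream of these factors moved both ways. MAP3K3, which encodes MEKK3, was 1.26-fold lower, at 75.3 ± 4.01 CPM in treated clones and 95.1 ± 3.08 CPM in wild-type. MEF2A rose 1.55-fold, and MEF2C averaged 50.1 ± 1.33 CPM in treated clones and 53.7 ± 0.801 CPM in wild-type and did not pass (edgeR adjusted p = 0.169), but rose by 0.25 with the GC and length correction. Of 13 members of the cascade 5 rose, 4 fell and 4 did not pass, a called share of 69.2% against 58.7% of all genes, with a median log2 fold change of 0.06. The KLF2 promoter is printed because MEF2 proteins are known to act there, with a match to CTA, any 4 bases and TAG in capitals, as RefSeq gives the 250 bases before the gene start on the plus strand of GRCh38.p14, chr19:16324576-16324825.
KLF2: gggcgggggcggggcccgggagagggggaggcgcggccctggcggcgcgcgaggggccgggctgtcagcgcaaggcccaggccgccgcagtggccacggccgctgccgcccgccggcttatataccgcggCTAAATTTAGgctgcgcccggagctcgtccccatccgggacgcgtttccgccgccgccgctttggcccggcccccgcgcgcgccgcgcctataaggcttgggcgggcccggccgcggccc
The match begins 120 bases before the start. A search of both strands of such windows, 250 bases long, found this pattern in 106 of the 6766 tested genes with a promoter in the RefSeq table, which is 1.57%. Among the KLF family it was in 1 of 7 matched genes, KLF2. A match describes letters and shows no binding.

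Genes known as targets of KLF2 and KLF4 mostly rose. Of 20 members tested, 18 rose, 1 fell and 1 did not pass, a called share of 95% against 58.7% of all genes, and the median log2 fold change was 1.70 against 0.01. ASS1, an enzyme of arginine synthesis, rose to 106, 106 and 73.9 CPM in the treated clones, against 2.81, 2.25 and 2.36 CPM in wild-type. LYVE1, a hyaluronan receptor, rose 11.6-fold to 324, 267 and 310 CPM, against 25.1, 27.4 and 25.4 CPM in wild-type. ADAMTS4, a protease that cleaves versican and aggrecan, rose 7.37-fold, and the thioredoxin inhibitor TXNIP rose to 404 ± 37.3 CPM against 111 ± 9.02 CPM in wild-type. The receptor TEK, for angiopoietins, was 3.33-fold higher, at 356 ± 45.4 CPM in treated clones and 107 ± 4.03 CPM in wild-type. The member that fell was PLVAP, which forms the diaphragms of fenestrae, at 2.19 ± 0.609 CPM in treated clones and 14.6 ± 1.60 CPM in wild-type, and the member that did not pass was IL11RA (edgeR adjusted p = 0.938). Both are named after their values were seen.

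Genes that control clotting and vessel tone included both rises and falls. Thrombomodulin (THBD), which turns thrombin towards anticoagulant activity, stood at 45.2, 39.4 and 46.1 CPM in the treated clones and at 11.2, 10.03 and 10.4 CPM in wild-type, 4.14-fold higher. The anticoagulant cofactor protein S (PROS1) rose 4.93-fold, and annexin A2's partner S100A10 rose by 1.73 on the log2 scale. TFPI2, a Kunitz-type protease inhibitor, fell to 22.5, 6.95 and 6.30 CPM, against 580, 542 and 563 CPM in wild-type, with clone 21 the highest of the treated clones. In the list of anticoagulant and fibrinolytic genes 11 of 23 rose and 7 fell (78.3% called, all genes 58.7%). TFPI (345 ± 44.0 CPM in treated clones, 364 ± 14.0 CPM in wild-type) did not pass.

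Among vasomotor genes 11 of 20 rose and 5 fell (80% called, all genes 58.7%). NOS3, the endothelial nitric oxide synthase, rose to 151, 134 and 155 CPM in the treated clones, against 48.9, 51.6 and 37.8 CPM in wild-type. CAV1, the scaffold of caveolae that binds this enzyme, rose to 1598 ± 24.1 CPM, against 799 ± 26.2 CPM in wild-type. KCNN4, a calcium-activated potassium channel, was at 21.3 ± 3.37 CPM in treated clones and 0.221 ± 0.0677 CPM in wild-type. The cyclooxygenase genes went the other way: PTGS1 fell to 11.7 ± 1.90 CPM against 55.0 ± 4.55 CPM in wild-type, and PTGS2 fell to 1.14 ± 0.305 CPM against 19.1 ± 2.85 CPM. The vasoconstrictor gene EDN1 was 1.82-fold lower, at 265 ± 24.7 CPM in treated clones and 483 ± 11.7 CPM in wild-type.

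Von Willebrand factor and P-selectin, which endothelial cells store in the same granules, both rose. VWF stood at 2798, 3467 and 2656 CPM in the treated clones and at 329, 372 and 275 CPM in wild-type, 9.14-fold higher (log2 fold change 3.19, SE 0.13). SELP stood at 73.7, 81.0 and 64.6 CPM in the treated clones and at 1.48, 1.45 and 1.54 CPM in wild-type, 48.9-fold higher. ANGPT2, whose product shares these granules, fell instead. Of 15 genes of leukocyte adhesion 8 rose and 4 fell (80% called, all genes 58.7%). ICAM1, a ligand of leukocyte integrins, rose 4.65-fold to 140 ± 15.3 CPM, against 30.1 ± 6.02 CPM in wild-type. The chemokine IL8 fell 9.35-fold, and of 32 inflammatory genes 11 rose, 13 fell and 8 did not pass (75% called, all genes 58.7%).

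The treated clones carried far less RNA for fibronectin itself. FN1 stood at 1065, 1323 and 1298 CPM in clones 21, 22 and 23 on fibronectin, against 15512, 14014 and 14499 CPM in the wild-type lines. The groups lay over 10-fold apart (11.9-fold, log2 fold change -3.58, SE 0.09, edgeR adjusted p = 2.79e-12). The gene took 0.103% to 0.131% of all counts in the treated clones and 1.42% to 1.59% in wild-type. The untreated clones had a log2 fold change of -3.38 against the same wild-type libraries.

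Most of the integrin subunits that bind fibronectin fell. ITGAV stood at 108, 122 and 131 CPM in treated clones and at 549, 435 and 472 CPM in wild-type, 4.04-fold lower. Its partner ITGB3 fell 2.94-fold, to 60.0, 80.6 and 78.0 CPM against 225, 202 and 215 CPM in wild-type. ITGA5 and ITGB1, the subunits of the main fibronectin receptor, fell 1.72-fold and 1.65-fold. Of the 9 tested genes in this list 6 fell, 1 rose and 2 did not pass (ITGB5 and ITGB8). The called share was 77.8% against 58.7% of all genes, and the median log2 fold change was -0.79. ITGB8 was higher with the GC and length correction, by 0.29 on the log2 scale, and ITGB5 without treated clone 22, by 0.15. The gene that rose, NID1, encodes the basement membrane protein nidogen 1.

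ITGB4, which pairs with alpha 6 to bind laminin, rose to 172, 184 and 245 CPM in the treated clones, against 10.6, 10.5 and 5.81 CPM in wild-type. ITGA6 rose 3.06-fold to 419 ± 49.8 CPM, against 137 ± 2.30 CPM in wild-type, and ITGA3 rose 2.05-fold. ITGA2, a collagen-binding subunit, fell 3.76-fold to 75.2 ± 8.37 CPM, against 283 ± 17.5 CPM in wild-type. Of 7 tested integrins that bind laminin or collagen 3 rose, 2 fell and 2 did not pass (71.4% called, all genes 58.7%). Of 25 focal adhesion genes 8 rose, 10 fell and 7 did not pass, among them ACTN1 and PTK2, the gene of focal adhesion kinase. The called share was 72% against 58.7% of all genes, and the median log2 fold change was -0.12, and 0.01 with the GC and length correction. LIMS2 rose to 74.2 ± 9.78 CPM against 15.9 ± 3.26 CPM in wild-type, and its paralogue LIMS1 fell to 96.8 ± 0.560 CPM against 141 ± 7.92 CPM.

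Most matrix genes that changed fell. In the basement membrane list 12 of 20 fell and 4 rose (80% called, all genes 58.7%). The median log2 fold change was -0.33, and -0.21 with the correction. COL4A1 and COL4A2, the main chains of vascular collagen IV, fell 3.12-fold and 2.36-fold. COL4A1 stood at 308, 409 and 376 CPM in treated clones and at 1202, 1162 and 1043 CPM in wild-type. COL5A1 fell 4.24-fold to 85.1 ± 5.77 CPM, against 361 ± 32.7 CPM in wild-type, and of 23 collagen and collagen-modifying genes 11 fell and 3 rose, a called share of 60.9% that is near the 58.7% of all genes. The lysyl oxidase gene LOX was an exception, rising to 118 ± 10.6 CPM against 45.4 ± 2.17 CPM, while LOXL1 fell to 0.0317 ± 0.0298 CPM against 2.17 ± 0.218 CPM in wild-type.

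Among 27 matricellular and elastic fibre genes 14 fell and 6 rose (74.1% called, all genes 58.7%). VCAN, the proteoglycan versican, stood at 3.09, 3.31 and 2.60 CPM in the treated clones, against 34.8, 32.0 and 30.8 CPM in wild-type. MGP, an inhibitor of calcification and of BMPs, fell to 45.8 ± 1.68 CPM against 168 ± 14.98 CPM. Proteases were mixed, with 11 of 33 members higher and 15 lower (78.8% called, all genes 58.7%). The collagenase MMP1 rose to 942 ± 77.1 CPM against 328 ± 39.1 CPM in wild-type, and MMP10 fell to 2.25 ± 0.204 CPM against 41.5 ± 1.17 CPM.

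**Figure D2:**
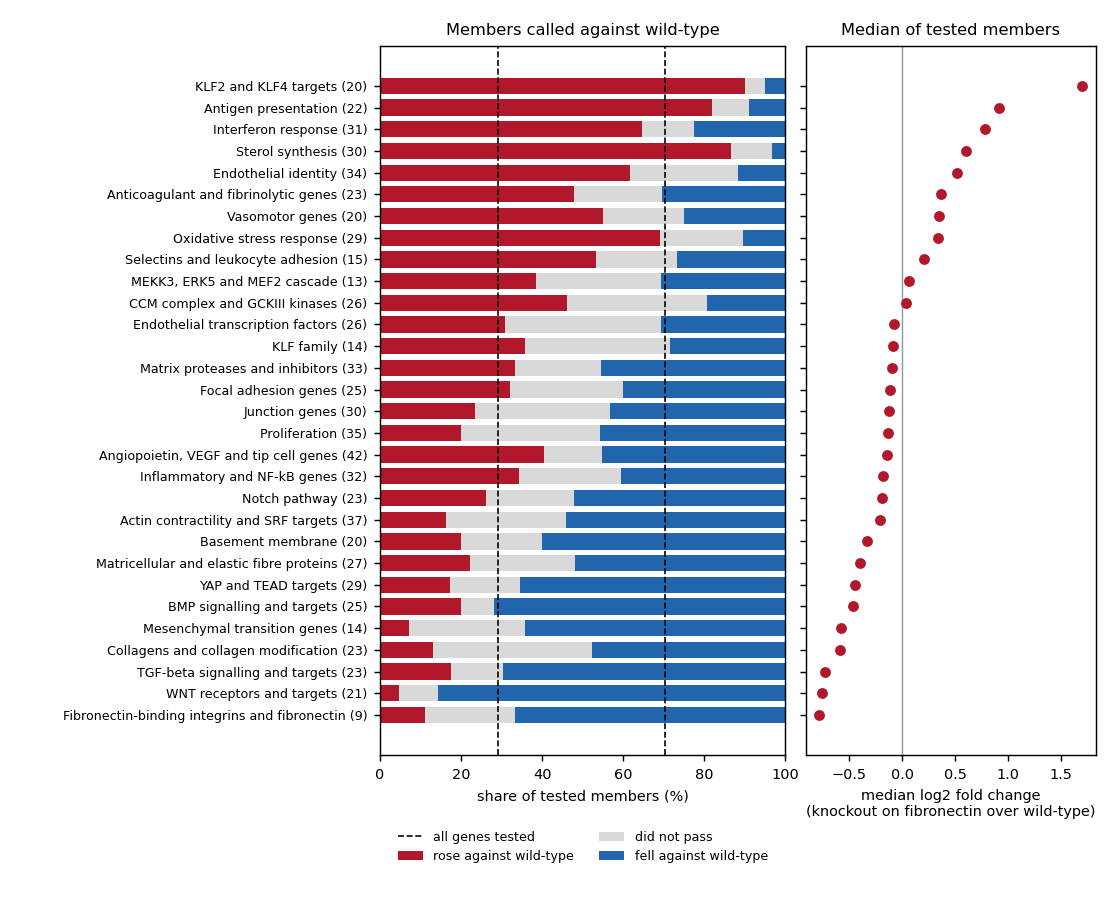
Left, share in percent of the tested members of each gene list (number tested in brackets) that rose, did not pass or fell in CCM3 -/- clones on fibronectin against wild-type, where dashed lines mark the shares over all genes. Right, median log2 fold change of the members. KLF2 and KLF4 targets have the highest median of the 30 lists plotted, 1.70, and the fibronectin and fibronectin-binding integrin list the lowest, -0.79. Of the 41 lists made, those not plotted include more extreme medians, 3.81 for 5 leukocyte markers and -2.06 for 6 fibroblast markers. Under alternative settings these ran from 0.84 to 3.95 and from -2.6 to 1.09.

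Genes of BMP signalling, a pathway that loss of CCM genes is known to alter in mouse endothelium, mostly fell. Of 25 tested genes 18 fell, 5 rose and 2 did not pass, a called share of 92% against 58.7%, and the median log2 fold change was -0.46. ID3, a direct BMP target that blocks helix-loop-helix factors, stood at 9.74, 8.69 and 9.18 CPM in treated clones and at 97.99, 99.5 and 94.2 CPM in wild-type. ATOH8, another BMP9-responsive transcription factor gene, stood at 1.04, 1.45 and 1.30 CPM, against 46.6, 45.8 and 43.9 CPM in wild-type. The receptor BMPR1A was 70.6-fold lower, at 0.128 ± 0.0498 CPM in treated clones and 9.36 ± 1.4999 CPM in wild-type. ID1, another BMP target, stood at 43.2, 27.5 and 43.8 CPM in treated clones and at 42.1, 40.0 and 40.1 CPM in wild-type, and the groups overlapped (edgeR adjusted p = 0.68). With the GC and length correction ID1 fell by 0.44 on the log2 scale (edgeR adjusted p = 0.0199). LRRC32, which anchors latent TGF-beta on the cell surface, rose to 156 ± 2.62 CPM against 41.3 ± 3.74 CPM.

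The TGF-beta list fell in a like share, 16 of 23 members with 4 that rose (87% called, all genes 58.7%). Its median log2 fold change was -0.73. PMEPA1, a feedback inhibitor of the pathway, fell to 10.5 ± 1.60 CPM against 56.9 ± 1.84 CPM in wild-type, and INHBA, the activin A subunit, fell to 0.243 ± 0.0861 CPM against 9.84 ± 1.36 CPM. SMAD2 averaged 87.6 ± 2.92 CPM in treated clones and 89.2 ± 4.02 CPM in wild-type and did not pass, and was higher by 0.57 on the log2 scale with the correction. TGFBI belongs to this list too. Of 14 genes of mesenchymal transition 9 fell, 1 rose (S100A4) and 4 did not pass, a called share of 71.4% against 58.7%. SNAI1, which represses endothelial and epithelial junction genes, fell to 4.09 ± 0.677 CPM against 16.4 ± 2.47 CPM, and VIM, an abundant filament of endothelial cells, fell by 0.18 on the log2 scale, a call lost without wild-type line 2 (edgeR adjusted p = 0.0764).

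Notch and WNT genes were also mostly lower among those that changed. Of 23 Notch genes 12 fell and 6 rose (78.3% called, all genes 58.7%). HES1, a Notch target, fell to 4.86 ± 0.841 CPM against 13.3 ± 0.822 CPM in wild-type, and the ligand JAG1 fell to 56.7 ± 1.52 CPM against 105 ± 4.82 CPM. NOTCH1 did not pass, at 44.0 ± 5.36 CPM in treated clones and 49.998 ± 9.05 CPM in wild-type, but fell without wild-type line 3 (log2 fold change -0.31, edgeR adjusted p = 0.024). Of 21 WNT receptors and targets 18 fell, 1 rose and 2 did not pass (90.5% called, all genes 58.7%). Their median log2 fold change was -0.76. PTK7, a pseudokinase co-receptor, stood at 0.252, 0.372 and 0.148 CPM in the treated clones, against 58.7, 57.8 and 51.0 CPM in wild-type, and the WNT antagonist SFRP1 was 11.9-fold lower.

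Angiogenic genes moved both ways. Over the 42 genes of the angiopoietin, VEGF and tip cell list, 17 rose, 19 fell and 6 did not pass (85.7% called, all genes 58.7%). ANGPT2, the destabilising ligand of TEK, stood at 3.88, 4.59 and 4.82 CPM in the treated clones and at 34.8, 34.1 and 33.7 CPM in wild-type, 7.70-fold lower. CXCR4, a chemokine receptor of tip cells, was 24.3-fold lower, ESM1, a secreted proteoglycan of tip cells, 3.86-fold lower, and RGS5, a brake on G protein signals, 20.3-fold lower. KDR, the main VEGF receptor, rose 1.76-fold to 402 ± 51.0 CPM, against 228 ± 8.88 CPM in wild-type. The tip cell genes APLN and DLL4, named after their values were seen, rose by 1.33 and 0.78 on the log2 scale.

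Most endothelial identity genes rose. In the list of endothelial identity 21 of 34 members rose, 4 fell and 9 did not pass (73.5% called, all genes 58.7%). The summed level of the list ran from 13150 to 14200 CPM in treated clones and from 7608 to 8497 CPM in wild-type. VWF is a member and held 2656 to 3467 CPM of the sum in treated clones and 275 to 372 CPM in wild-type. GJA5, a gap junction gene named after its values were seen, had 0 counts in treated clones and 51 in wild-type, at least 16.7-fold lower. CDH5, the VE-cadherin of endothelial junctions, stood at 584, 711 and 698 CPM in treated clones and at 750, 725 and 670 CPM in wild-type, which overlap (edgeR adjusted p = 0.261). With the GC and length correction CDH5 fell by 0.18 on the log2 scale (edgeR adjusted p = 0.0172). PECAM1 rose 2.31-fold to 1032 ± 44.0 CPM, against 446 ± 27.1 CPM. CD34, a sialomucin picked out after its values were seen, differed among the clones, at 484, 385 and 202 CPM in clones 21, 22 and 23, against 6.17, 5.11 and 6.4998 CPM in wild-type. AQP1, a water channel, was at 13.1 ± 3.79 CPM in treated clones and 0.249 ± 0.112 CPM in wild-type.

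Of 26 endothelial transcription factors 8 rose and 8 fell, a called share of 61.5% that is near the 58.7% of all genes. LMO2 rose to 86.3 ± 6.61 CPM against 15.03 ± 1.04 CPM in wild-type and FLI1 to 280 ± 4.95 CPM against 149 ± 1.68 CPM, while SOX17, an arterial factor, fell to 2.37 ± 0.823 CPM against 10.5 ± 0.267 CPM. Among lymphatic and venous genes PROX1, the lymphatic master factor, was lower at 0.119 ± 0.0468 CPM in treated clones and 1.73 ± 0.339 CPM in wild-type, opposite to LYVE1, and NR2F2 did not pass. Of 30 junction genes 7 rose and 13 fell, a called share of 66.7% against 58.7% of all genes. With the GC and length correction 11 rose and 15 fell, in a fit that called 7462 of 12157 genes. The gap junction gene GJA1 fell to 264 ± 4.42 CPM against 437 ± 3.87 CPM, and the protocadherin PCDH12 rose to 44.0 ± 0.985 CPM against 7.74 ± 0.731 CPM.

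The list of targets of YAP and TEAD, transcriptional effectors of the Hippo pathway that respond to adhesion and tension, also holds YAP1 and WWTR1. Of its 29 tested members 19 fell and 5 rose, a called share of 82.8% against 58.7% of all genes. The median log2 fold change was -0.45. YAP1 itself fell 2.13-fold to 22.7 ± 1.37 CPM, against 48.4 ± 0.981 CPM in wild-type, and its paralogue WWTR1 fell 1.88-fold. CTGF, a matricellular growth factor and standard YAP target, stood at 842, 702 and 853 CPM in treated clones and at 1745, 1706 and 1823 CPM in wild-type. ANKRD1, another such target, stood at 388, 362 and 398 CPM in treated clones and at 742, 702 and 838 CPM in wild-type. It was picked for its promoter after its values were seen. The promoters of this pair are printed because they hold more than 1 copy of GGAATG, the core letters that TEAD factors bind, shown in capitals. They are the 250 bases before each start on the minus strand of GRCh38.p14 in RefSeq, chr6:131951373-131951622 for CTGF (CCN2 in RefSeq) and chr10:90921088-90921337 for ANKRD1.
CTGF: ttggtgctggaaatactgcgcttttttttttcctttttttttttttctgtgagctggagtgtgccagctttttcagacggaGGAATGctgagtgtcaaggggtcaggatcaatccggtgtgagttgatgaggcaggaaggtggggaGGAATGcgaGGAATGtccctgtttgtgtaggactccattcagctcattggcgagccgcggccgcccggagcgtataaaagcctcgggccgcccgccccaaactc
ANKRD1: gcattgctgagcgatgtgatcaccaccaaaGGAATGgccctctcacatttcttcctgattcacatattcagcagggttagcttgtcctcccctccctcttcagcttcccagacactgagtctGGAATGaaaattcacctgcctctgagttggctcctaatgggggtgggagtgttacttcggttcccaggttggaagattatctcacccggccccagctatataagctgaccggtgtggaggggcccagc
The copies begin 169, 104 and 95 bases before the start of CTGF and 220 and 128 bases before that of ANKRD1. On either strand, GGAATG was present in 6 of the 16 list members matched, 37.5%, and in 647 of 6766 tested genes matched, 9.56%. The other 4 members with a match, YAP1, PTPN14, NUAK2 and TGFB2, fell too, as 19 of all 29 members did. PTPN14 lost its call with the GC and length correction (log2 fold change -0.10, edgeR adjusted p = 0.0903). NUAK2 and PTPN14 are named after their values were seen. The letters describe the window and show no binding.

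Contractile genes fell in 20 of 37 cases and rose in 6, a called share of 70.3% against 58.7% of all genes, with a median log2 fold change of -0.21. TPM1, a tropomyosin of stress fibres, fell to 122 ± 1.80 CPM against 258 ± 8.69 CPM in wild-type. CALD1 fell to 236 ± 10.4 CPM against 429 ± 14.4 CPM. RHOA, the GTPase whose activity is known to rise on CCM loss, rose in RNA to 1210 ± 41.7 CPM against 784 ± 28.5 CPM, and RHOB fell to 290 ± 40.0 CPM against 552 ± 16.1 CPM. SRF averaged 45.3 ± 0.789 CPM in treated clones and 45.1 ± 0.310 CPM in wild-type and did not pass.

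Most genes of sterol synthesis, oxidative stress, interferon response and antigen presentation rose. Of 30 genes of sterol synthesis and its control 26 rose, 1 fell and 3 did not pass (90% called, all genes 58.7%). Their median log2 fold change was 0.60, and 0.54 with the correction. FDFT1, squalene synthase, rose 1.90-fold, and SREBF1 did not pass. Of 29 oxidative stress genes 20 rose and 3 fell (79.3% called), with a median of 0.34, which was 0.13 with the correction. HMOX1, heme oxygenase 1, rose 2.73-fold, and FTL, the ferritin light chain, rose to 2034 ± 62.9 CPM against 1002 ± 30.4 CPM.

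Of 22 genes of antigen presentation 18 rose and 2 fell, and of 31 interferon response genes 20 rose and 7 fell. The called shares were 90.9% and 87.1%, against 58.7% of all genes, and the median log2 fold changes were 0.91 and 0.78. HLA-E, a non-classical class I molecule, stood at 1357, 1175 and 1214 CPM in treated clones and at 372, 388 and 336 CPM in wild-type. PSMB9, an immunoproteasome subunit, rose 19.0-fold to 11.4 ± 2.18 CPM, against 0.594 ± 0.0547 CPM. IFITM3, which blocks viral entry, rose 2.90-fold to 484 ± 56.7 CPM, against 167 ± 12.4 CPM in wild-type. DDX58, the RNA sensor RIG-I, was among the genes that fell, to 16.9 ± 1.09 CPM against 33.3 ± 0.927 CPM. Of 35 proliferation genes 16 fell and 7 rose, a called share of 65.7% against 58.7% of all genes, with TOP2A at 172 ± 18.3 CPM in treated clones and 274 ± 12.6 CPM in wild-type.

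Changes of treated clones over wild-type followed the base composition of the transcripts, which is given here as a measurement. The genes that rose had a median transcript GC content of 52.2% and a median length of 2947 bases, those that fell 43.7% and 4960 bases, and all tested genes 48.0% and 3673 bases. Genes were divided into 5 equal bins from low to high GC content. In that order, the median log2 fold change of treated clones over wild-type was -0.20, -0.10, 0.02, 0.14 and 0.21. For untreated clones over wild-type it did not rise steadily, at -0.0943, -0.0256, 0.0215, 0.0243 and -0.0848. With each library corrected for GC content and length, 3670 genes rose and 3792 fell among 12157 genes with a transcript. Of 7341 calls tested in both, 5719 were called in the same direction with the correction and 83 in the opposite one. Such a correction also removes any change of the cells that runs along GC content, and the part of library chemistry in these changes was not tested.

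**Figure D3:**
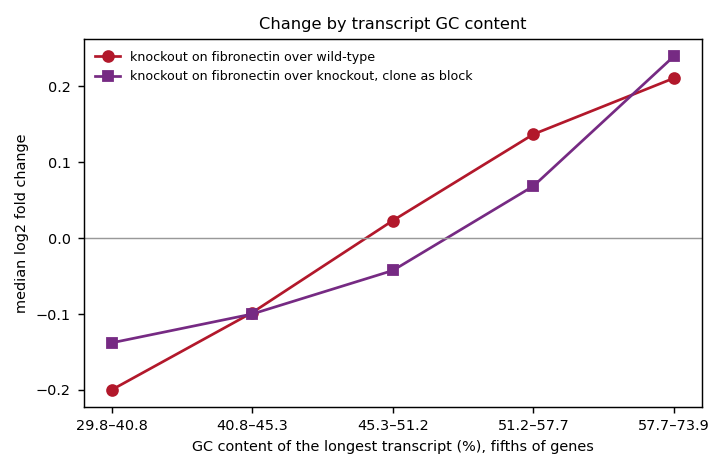
Median log2 fold change of genes in 5 equal bins of transcript GC content (percent), for CCM3 -/- clones on fibronectin over wild-type (circles) and over the same clones without fibronectin with the clone as a block (squares). The medians run from -0.20 to 0.21 and from -0.14 to 0.24.

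Treated and untreated clones differed far less than either did from wild-type. In the fit over all 9 libraries, 1 gene, TAGLN, differed between clones with and without fibronectin, while 3078 had an unadjusted p under 0.05 and DESeq2 called 987. The same 3 clones stand in both groups, and with the clone as a block 899 of 13257 genes changed (6.78%), 659 higher and 240 lower on fibronectin. The blocked fit called 0 genes without clone 23, against 526 without clone 21 and 837 without clone 22. Fold changes without clone 23 were like those with it: MYL9 was at 0.87, HAGHL at 0.92, HIVEP1 at -0.70 and ANGPT2 at -0.68 on the log2 scale, each with an adjusted p of 0.204. It also follows GC content, since the 659 genes had a median GC content of 62.1% and the 240 genes 40.3%, and with GC and length correction the blocked fit called 169 of 11739 genes, 93 higher and 76 lower.

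TAGLN, an actin-binding protein of contractile cells, showed the clearest shift on fibronectin. It stood at 32.8, 23.9 and 21.1 CPM in clones 21, 22 and 23 on fibronectin and at 10.7, 11.4 and 11.4 CPM in the same clones without it, against 44.3, 47.6 and 42.1 CPM in wild-type. Every treated library lay above every untreated one and below every wild-type one. The blocked log2 fold change over untreated clones was 1.17 (SE 0.12, edgeR adjusted p = 8.79e-05), and 1.04 with GC and length correction. Without clone 23 it was 1.32, with an adjusted p of 0.195. In the fit without a block the adjusted p was 0.0234, and 0.1, 0.214 and 0.0626 without untreated clone 21, 22 or 23. MYL9, a regulatory light chain of myosin, stood at 11.9, 11.5 and 15.5 CPM in treated clones and at 5.55, 7.07 and 9.19 CPM in untreated clones, against 29.8, 29.1 and 27.0 CPM in wild-type. Its blocked log2 fold change was 0.82 (SE 0.11, adjusted p = 0.00167), and 0.60 with the correction. Both genes thus had treated values between the untreated and the wild-type ones. Of 37 contractile genes 6 were higher and 2 lower on fibronectin in the blocked fit that called 6.78% of all genes.

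Other genes moved further from wild-type on fibronectin. ANGPT2 stood at 3.88, 4.59 and 4.82 CPM in treated clones and at 6.01, 7.32 and 7.95 CPM in untreated clones, with wild-type at 33.7 to 34.8 CPM. Its blocked log2 fold change was -0.70 (SE 0.13, adjusted p = 0.011), and -0.56 with the correction. HIVEP1, a zinc finger factor, stood at 13.7, 19.2 and 17.5 CPM in treated clones and at 25.1, 26.9 and 22.97 CPM in untreated clones. FAT1, a giant protocadherin, had a blocked log2 fold change of -0.75, and the collagen-binding integrin ITGA2 one of -0.40, which was -0.23 with the correction. In all 3 of these genes each clone was lower with fibronectin than without. The integrins ITGAV, ITGB1 and ITGB3 had blocked log2 fold changes of -0.32, -0.29 and -0.35, which did not pass with GC and length correction (adjusted p = 0.151, 0.0948 and 0.07).

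KLF2, KLF4 and FN1 did not pass between treated and untreated clones. Their blocked log2 fold changes were 0.09 (SE 0.08, adjusted p = 0.528), 0.06 (adjusted p = 0.684) and -0.22 (SE 0.07, adjusted p = 0.0646). With GC and length correction KLF2 passed with the opposite sign, at -0.28 (adjusted p = 0.00685). FN1 stood at 1065, 1323 and 1298 CPM in treated clones and at 1427, 1417 and 1374 CPM in untreated clones, so each clone was lower with the coating. The blocked value for FN1 was -0.06 (adjusted p = 0.586) with the correction and -0.09 without clone 21. HAGHL and SCAND1, of the genes that rose on fibronectin in the blocked fit, lay at 6.17 to 8.12 CPM and at 6.74 to 10.4 CPM in treated clones, against 3.10 to 4.30 CPM and 4.21 to 6.17 CPM in untreated clones. Their blocked log2 fold changes were 0.88 and 0.77, and 0.56 and 0.45 with the correction.

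**Figure D4:**
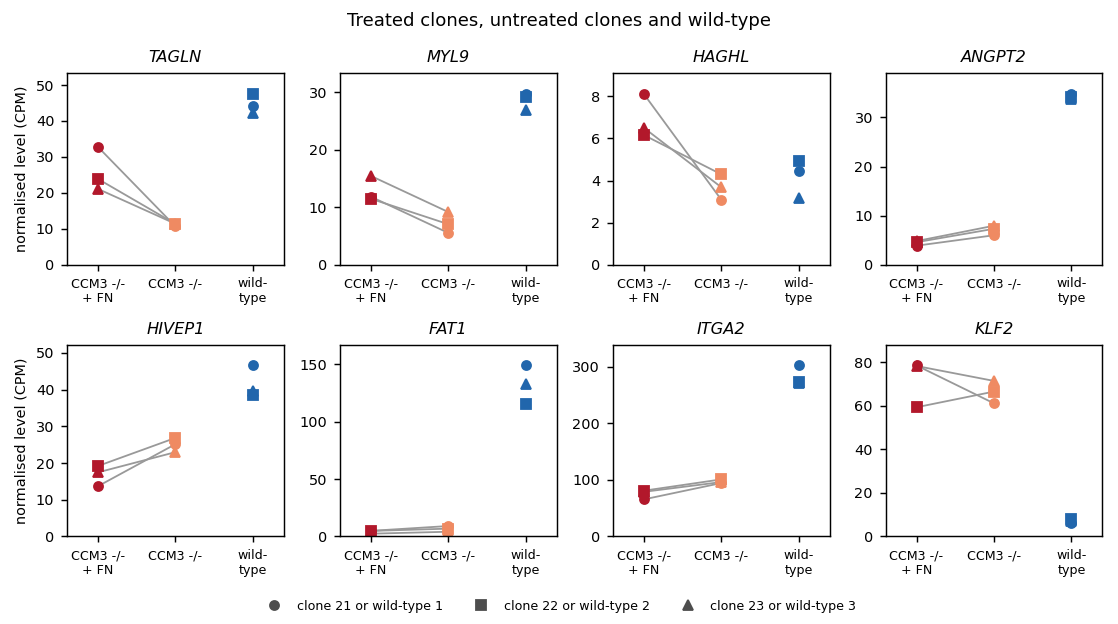
Normalised level in CPM of 8 genes in CCM3 -/- clones on fibronectin (left), the same clones without it (middle, joined by a line per clone) and wild-type lines (right), each axis starting at 0. TAGLN and MYL9 lie between untreated clones and wild-type, ANGPT2, HIVEP1 and ITGA2 lie below the untreated clones, and KLF2 overlaps them. FAT1 is lower with fibronectin in each clone, though its treated and untreated values overlap.

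Among genes that changed, the 3 treated clones differed little in most, but a small spread also helps a gene pass the test. Over genes with at least 20 counts in a pair of libraries, called or not, treated clones differed more. The chi-square of counts per degree of freedom was 11.4 to 21.8 between treated clones and 5.37 to 10.4 between wild-type lines. Among 5935 changed genes whose mean reached 5 CPM in both groups, the median log2 range among the 3 libraries was 0.197 in treated clones and 0.14 in wild-type. A range over 1 was seen for 17 of these genes in treated clones and for 0 in wild-type. DNASE1L3, a secreted nuclease, stood at 137, 71.6 and 25.5 CPM in clones 21, 22 and 23, against 0.303 to 0.369 CPM in wild-type. The interferon-induced gene IFI27 stood at 149, 77.2 and 46.4 CPM, against 10.01 to 12.7 CPM in wild-type. NRCAM, a cell adhesion molecule, ran the other way, at 17.9, 36.7 and 50.7 CPM against 141 to 156 CPM in wild-type. These differences among clones did not change the side of wild-type on which each clone lay.

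RASGRF2, a Ras and Rac exchange factor, stood at 1.87, 10.1 and 7.04 CPM in the treated clones and at 0.0657 to 0.111 CPM in wild-type. EMCN, the endothelial sialomucin endomucin, stood at 17.1, 8.81 and 5.71 CPM, against 29.8 to 34.3 CPM in wild-type. Its edgeR adjusted p of 0.0443 rose past the threshold without wild-type line 1 (0.09), 2 (0.0929) or 3 (0.0978), without clone 22 (0.116) or 23 (0.113), and with the correction (0.0637). FAP, a serine protease of activated stroma, spread from 4.03 to 33.0 CPM over the treated clones and overlapped wild-type, at 6.21 to 7.54 CPM. Clone 21 was the highest of the treated clones for EMCN and FAP and the lowest for RASGRF2.

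**Figure D5:**
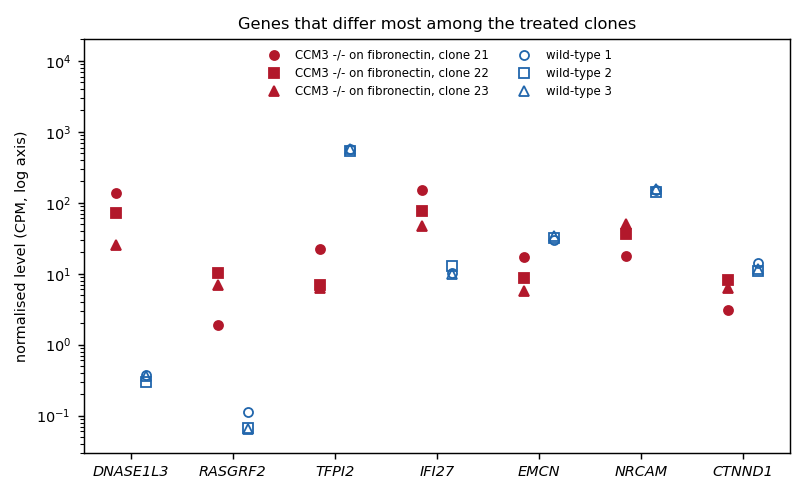
Normalised level in CPM (log axis) of 7 named genes, taken from those that changed against wild-type with the largest range among the CCM3 -/- clones on fibronectin (filled), beside the wild-type lines (open). Clone 21 is at one end of the treated clones in each gene, as in DNASE1L3 with 137 CPM against 25.5 CPM in clone 23.

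Markers of other cell types that passed the filter moved in both directions. Of 14 smooth muscle and pericyte markers 6 were tested, with 1 higher (MCAM) and 3 lower (RGS5, SMTN and TAGLN). The called share was 66.7% against 58.7% of all genes. Their summed level ran from 1800 to 1976 CPM in treated clones and from 1518 to 1773 CPM in wild-type. Of 10 leukocyte markers 5 were tested and 4 rose (80% called, all genes 58.7%). Their summed level was 32.6 to 35.0 CPM in treated clones and 17.6 to 18.3 CPM in wild-type, most of it CD68. The median log2 fold change of the leukocyte markers was larger, 3.81, and 0.84 to 3.95 under the alternatives. ITGAM had 44 counts in treated clones and 0 in wild-type. Of 10 fibroblast markers 6 were tested, 3 fell and 1 rose (66.7% called, all genes 58.7%). Their sums were 7.19 to 38.9 CPM in treated clones and 50.1 to 55.5 CPM in wild-type, most of the wild-type sum being POSTN. The median log2 fold change of the fibroblast markers was -2.06, and -2.6 to 1.09 under the alternatives. Of 10 epithelial markers 5 were tested, 4 rose and 1 (KRT7) fell (100% called, all genes 58.7%). Their median log2 fold change was 0.85, and 0.60 to 0.91 under the alternatives. Their sums were lower, at 544 to 638 CPM in treated clones and 774 to 820 CPM in wild-type. The part of all these markers in the results was not tested.

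The authors' deposited table of this comparison listed 7226 genes with an adjusted p under 0.05, of which 3556 rose and 3670 fell. Of these, 7069 were among the genes tested here, and all 7069 had the same sign in the fit described here. For treated against untreated clones the authors' deposited table listed 126 such genes, 111 higher and 15 lower.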

How the data were processed

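RNA of 9 libraries was sequenced after TruSeq Stranded mRNA preparation, per the labels' protocols. STAR, HTSeq and the build hg19 are named in the submitters' processing notes, with versions not given in the sources used here. Raw counts and FPKM per gene symbol were deposited by the authors, who also deposited comparison tables with a log2 fold change, its standard error (a score column) and p-values, where the program is not named per the file headers. Counts were tested with edgeR 4.0.16 in R 4.3.3 (TMM, filterByExpr with a minimum count of 10 and total of 15, robust quasi-likelihood F test) in 1 fit over 9 libraries, with Benjamini-Hochberg adjustment over 13802 genes and a threshold of 0.05. Fold changes are treated clones over the group named, and SE is the log2 fold change over the root of F. The script was tested on simulated data. Totals of 24406001 to 33971610 counts set the precision, and intervals and floors cover counting error only.

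Treated and untreated libraries come from the same clones. Their deviations from the group means correlated at 0.371, 0.45 and 0.543 for the same clone and at -0.497 to 0.0252 for different clones, so the clone was also fitted as a block. Named genes were those of a list made in advance, the smallest p-values, and members of each list with the smallest or largest p-values. Added to these were the genes with the largest changes and the largest spread among clones. The largest changes against wild-type were taken among called genes whose groups did not overlap. Members, lists and rules were chosen with earlier results of these data known. Alternatives were RLE size factors, other filters, DESeq2 1.42.0, each library left out, a 6-library fit, and GC and length correction, which was chosen after seeing the data. Promoter sequences are from RefSeq GRCh38.p14, another build than the files'. Figures were drawn with matplotlib 3.10.9. Some results are not reported here.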

Additional observations from a re-analysis of the deposited data

How the results depend on the processing

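For treated clones against wild-type, the counts of genes that changed, rose and fell stayed within 1.5 times of 8099, 4009 and 4090 under each alternative run: 8080 genes changed with RLE size factors, 8256 of 20720 without a filter, 7631 of 12517 with a stricter filter, 7785 with DESeq2, 7849 in the fit over 6 libraries and 7462 with GC and length correction. Leaving out each library gave 7089 to 8147. With the correction, MEF2C, SMAD2 and ITGB8, which had not passed, were higher in treated clones, with log2 fold changes of 0.251, 0.572 and 0.294. Over all named genes and alternatives of this comparison, 9 values lost a call, and 5 gained one besides these 3.

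For treated against untreated clones, the count of 1 gene was not stable. Without a filter 383 genes changed (336 higher, 47 lower), and with DESeq2 987 (602 higher, 385 lower). Leaving out 1 library gave 0 to 488 changed genes, 0 to 413 higher and 0 to 75 lower; it was 0 without any 1 of the untreated clones and 488 without treated clone 22. With the clone as a replicate block 899 genes changed (659 higher, 240 lower), without clone 21 526 (443 and 83), without clone 22 837 (748 and 89) and without clone 23 0. The block with GC and length correction gave 169 (93 and 76), and the block over genes with a transcript alone 873 (637 and 236). KLF2 turned round under the block with correction (log2 fold change -0.283, adjusted p = 0.00685). The cause was not tested.

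The median log2 range among clones was 0.0983 to 0.144 without 1 treated clone and 0.0791 to 0.0954 without 1 wild-type line, lower because a range over 2 libraries is smaller.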

Other observations

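The median log2 fold change of treated clones over wild-type differed between chromosomes. It ran from -0.19 over 386 genes of chromosome 10 to 0.21 over 449 genes of chromosome 16. These are tested genes placed on a chromosome whose mean over the treated and wild-type groups reached 5 CPM. Clones 21, 22 and 23 gave -0.19, -0.17 and -0.19 on chromosome 10, and 0.21, 0.16 and 0.19 on chromosome 16. Of 23 immediate early genes 7 rose and 11 fell, and of 28 hypoxia and glycolysis genes 13 rose and 8 fell. Of 28 autophagy and lysosome genes 13 rose and 5 fell. The called shares were 78.3%, 75% and 64.3%, against 58.7% of all genes.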
